A study of Mus musculus with 6 samples.

Results

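Integrins are receptors of an alpha and a beta chain that fix a cell to its matrix or to other cells. In osteoclasts, the multinucleated cells that resorb bone, they sit in podosomes, small adhesions with a core of branched actin inside a ring of talin, vinculin, paxillin and kindlin, and podosomes pack into the sealing zone that closes off the resorbed bone. The vitronectin receptor, the alpha-v chain paired with the beta-3 chain, is the integrin for which osteoclasts are best known, and it signals through the tyrosine kinases Src and Pyk2.

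The genes described here were the integrin chains and the talins, kindlins, kinases and actin regulators of podosomes, taken by gene name from the array. In all, 44 of the 37074 gene names on the array fitted, 18 integrin alpha chains, 8 integrin beta chains and 18 other adhesion proteins, and they were read by 102 of its 56605 probes. No probe carries the name Tks4, the protein now called Sh3pxd2b. Its probe under that name was in the list of other scaffold proteins.

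RNA came from bone marrow cultures of 3 Ano1fl/fl mice and 3 Ctsk-Cre;Ano1fl/fl mice, each treated with RANKL, the cytokine that drives osteoclast formation, for 5 days. All 6 mice carried floxed alleles of Ano1, a calcium-activated chloride channel, and the Ano1fl/fl mice were littermate controls without Cre. Per the study's methods the marrow was that of young adult mice, and cells in suspension after a day with M-CSF were used. Cre was driven by the promoter of the protease gene Ctsk, which is active in osteoclasts, so precursors that had not turned it on would keep the floxed gene. The comparison asks which adhesion genes differ when osteoclasts lack Ano1.

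Each array held 59305 transcript spots, of which 33480 to 34951 were well above background, and none was saturated. All 6 arrays lay on 1 slide. Log2 signals of the genes tested correlated at 0.995 to 0.997 within a group and at 0.947 to 0.951 between groups. The 1 Ano1 probe stayed near background on all 6 arrays, so the genotype labels could not be checked from the deleted gene, and each direction below is that of the arrays as labelled. Of 14 osteoclast markers tested, 13 were higher on the Ctsk-Cre;Ano1fl/fl-labelled arrays, with a median log2 difference of 2.85. The study gives osteoclast markers the opposite direction in these mice by PCR. Stromal cell markers were also higher on these arrays, 15 of 19, with a median difference of 3.94, or 2.81 with normexp background correction, and their summed signal was 23779 to 26278 on the Ano1fl/fl arrays and 99894 to 147854 on the others. Of the stromal markers, Pdgfra and Lum were well above background on no Ano1fl/fl-labelled array. In a mixed culture, a change in the number of cells of a type and a change in RNA per cell cannot be told apart.

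Testing required that a gene's brightest probe stand well above background throughout a group, which held for 41 members and 20645 genes. Values are log2 of the processed signal after quantile normalization, and a difference is the mean of the Ctsk-Cre;Ano1fl/fl-labelled arrays minus that of the Ano1fl/fl-labelled arrays. Of the 41 members, 20 were significantly higher at an adjusted p under 0.05, or 48.8%, where 23.4% of all genes tested were higher. Another 10 members were lower, or 24.4%, against 29.0% of all genes, and 11 did not pass. Without Ano1fl/fl replicate 3 the count of lower members was 6, and the share of all genes that were lower was 24.8%. By more than 2-fold, 12 members were higher, or 29.3%, against 9.88% of all genes, and 4 were lower, or 9.76%, against 7.19%. With normexp background correction, which adds a fixed offset to each signal, the counts past 2-fold were 9 and 2, as the dim members Itga2, Itga7, Tln2, Itga1 and Itga8 kept their direction but differed by less than 2-fold. Of the members called higher, Itga11, Itga2, Itga7 and Tln2 passed the filter through the Ctsk-Cre;Ano1fl/fl-labelled arrays alone, so their difference is partly built in by the filter. Among the 37 members well above background on all 6 arrays 16 were higher, 8 of them by more than 2-fold, where 22.2% of all such genes were higher. No share of all genes past 2-fold is given for this filter or for normexp correction, so an excess past 2-fold cannot be read there. The groups did not overlap for 34 members, or 82.9%, against 64.0% of all genes. The median difference was 0.29 over the members and -0.06 over all genes tested.

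Among the 17 alpha chains tested 10 were higher and 5 lower, and among the 6 beta chains 2 were higher and 2 lower. Over all genes tested 23.4% were higher and 29.0% lower. None of the 4 leukocyte alpha chains and none of the 5 kinases and adaptors tested was called lower, sets too small to set against that 29.0%. Of the 18 proteins that are not integrins 8 were higher and 3 lower, and 5 of the rises but none of the falls passed 2-fold. Of all genes tested 9.88% rose and 7.19% fell past 2-fold, so having no such fall among 18 proteins is not far from that share.

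**Figure D1:**
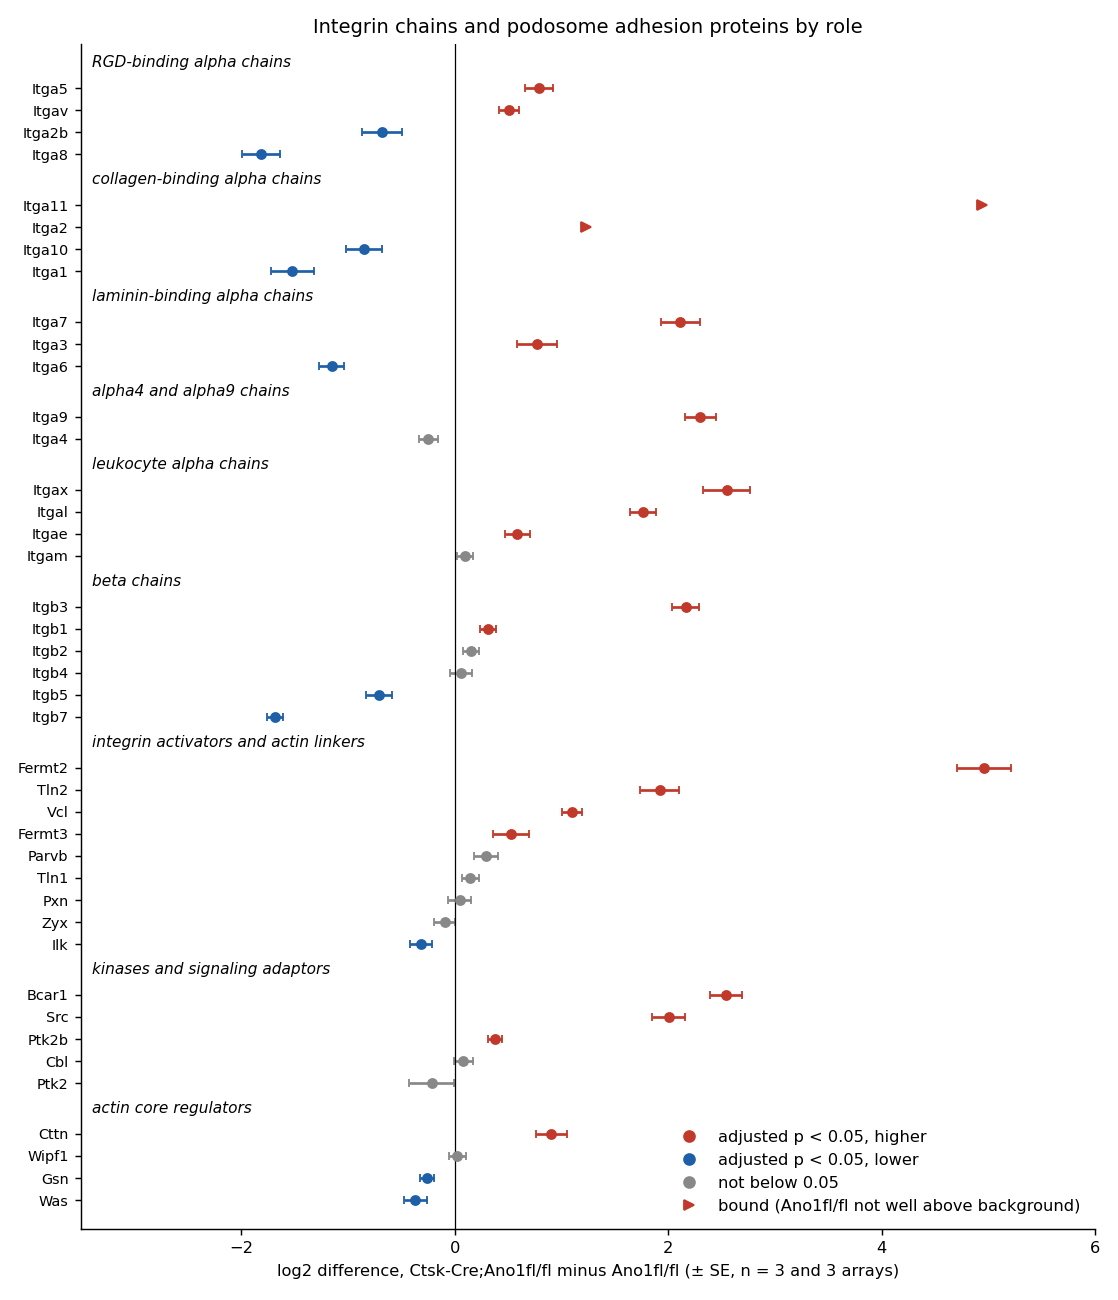
Log2 difference between the groups (horizontal axis, Ctsk-Cre;Ano1fl/fl minus Ano1fl/fl) for the 41 members tested, grouped by role, with bars of 1 SE and n = 3 arrays per group. Red points are the 20 members that were higher, blue points the 10 that were lower and grey points the 11 that did not pass, and triangles without bars are the bounds of Itga11 and Itga2, at 4.94 and 1.23, beside 4.96 for Fermt2.

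The vitronectin receptor was higher in both chains, the beta chain by more. Itgb3, the beta-3 chain, read 12.38, 12.47 and 12.66 on the Ano1fl/fl-labelled arrays and 14.51, 14.90 and 14.59 on the Ctsk-Cre;Ano1fl/fl-labelled arrays. Every value of the second group was above every value of the first, a difference of 2.16 ± 0.13 (SE), or 4.47-fold (adjusted p = 7.65e-05). A dimmer Itgb3 probe nearer the start of the transcript differed by 2.55, also without overlap. Itgav, the alpha-v chain, read 13.45, 13.46 and 13.30 against 13.85, 14.05 and 13.82. The groups were again apart, but by only 0.50 ± 0.09, or 1.42-fold (adjusted p = 0.00501). Of the 3 other Itgav probes, all dimmer and designed on other transcript models, 1 differed by 0.24 with overlapping groups and the remaining ones differed by -0.37 and -0.48 without overlap, and the mean of all Itgav probes differed by -0.025 (adjusted p = 0.851, against 0.000803 at the lowest over the alternatives). The direction of Itgav held for the brightest probe and not for the mean of its probes, while Itgb3 was higher by either of its probes.

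Itgb5 and Itga2b, other partners of these chains, were lower. Itgb5, the beta-5 chain, which pairs with alpha-v in osteoclast precursors, read 13.50, 13.23 and 13.32 on the Ano1fl/fl-labelled arrays and 12.76, 12.72 and 12.43 on the others. It was lower without overlap, by 0.71 on the log2 scale or 1.64-fold (adjusted p = 0.00383). Itga2b, the platelet alpha chain that pairs with beta-3, was lower by 1.61-fold (adjusted p = 0.0248), a call lost without Ano1fl/fl replicate 2 or 3 or Ctsk-Cre;Ano1fl/fl replicate 2 (adjusted p = 0.0663 to 0.0721). Platelet and megakaryocyte markers were lower on the same arrays, 8 of 10 with none higher, their summed signal falling from 130981 to 150052 on the Ano1fl/fl-labelled arrays to between 58275 and 66540, and their part in the Itga2b value was not tested. The alpha-v partners Itgb6 and Itgb8 were not tested, as Itgb6 never stood well above background and Itgb8 did so on 1 Ctsk-Cre;Ano1fl/fl-labelled array.

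Itgb1, the beta-1 chain that most alpha chains share, was higher by a small amount. Its brightest probe read 14.48, 14.50 and 14.42 against 14.82, 14.84 and 14.68, apart by 0.31 ± 0.07 (adjusted p = 0.0142). Under scaling by the 75th percentile the difference was 0.22 (adjusted p = 0.0874), and over all alternatives the adjusted p ran from 0.00253 to 0.680. A second probe read the end of the coding sequence and was higher by 0.21, without overlap. It is shown because it holds, in capitals, the codons of both NPxY motifs of the cytoplasmic tail, the sites where talin and kindlin bind a beta chain, and it lies at chr8:131250081-131255976 on the plus strand of mm9. The third Itgb1 probe, at chr8:131250931-131255949, was drawn from a muscle splice form of the tail, and its capitals mark the stop codon that ends that form's own reading frame.

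Itgb1 tail probe: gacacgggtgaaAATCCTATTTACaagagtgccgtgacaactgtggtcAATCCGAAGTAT

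Itgb1 muscle-form probe: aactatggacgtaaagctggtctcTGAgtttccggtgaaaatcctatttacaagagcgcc

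The muscle-form probe was well above background on 2 Ano1fl/fl-labelled and 1 Ctsk-Cre;Ano1fl/fl-labelled array, and its groups overlapped. Of all 56605 probes, 97, or 0.171%, held NPxY codons in a frame without an earlier stop, and among the members the tail probe was the 1 that did.

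The collagen-binding and the laminin-binding alpha chains that pair with beta-1 each held both rises and falls. Of the 4 collagen-binding alpha chains, 2 were higher and 2 lower. Itga11, the alpha-11 chain of fibroblasts, was not well above background on any Ano1fl/fl-labelled array, at 3.79, 3.71 and 3.63, and read 9.65, 8.47 and 8.59 on the others. By the main processing Itga11 was at least 30.6-fold higher (adjusted p = 7.29e-05). A second, dimmer Itga11 probe was well above background on no Ano1fl/fl-labelled and 2 Ctsk-Cre;Ano1fl/fl-labelled arrays, its groups overlapped, and the mean of all Itga11 probes differed by 2.89. Itga2, also below background on all 3 Ano1fl/fl-labelled arrays, read 3.42, 3.58 and 3.68 against 4.90, 5.36 and 5.33 and was at least 2.35-fold higher. Its adjusted p of 0.000323, like that of Itga11, comes from values below background in 1 group, and the filter partly builds in both differences. With normexp correction the log2 differences were 2.85 for Itga11 and 0.44 for Itga2, and with series matrix values 3.53 and 0.72. All lie under the bounds, which hold for the main processing alone.

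The other collagen receptors were lower. Itga1 read 7.47, 7.20 and 7.39 on the Ano1fl/fl-labelled arrays and 6.21, 5.84 and 5.45 on the Ctsk-Cre;Ano1fl/fl-labelled arrays, 2.87-fold lower without overlap (adjusted p = 0.00134), though with normexp correction the log2 difference was -0.90. Of its other probes, 2 were well above background on every Ano1fl/fl-labelled array and on no Ctsk-Cre;Ano1fl/fl-labelled array, and were at least 1.91-fold and 1.36-fold lower, while a probe on an alternative transcript differed by 0.71 with overlapping groups. Itga10, a dim member, was 1.80-fold lower (adjusted p = 0.00676), and over the alternatives its log2 difference ran from -0.98 to -0.39. Its other probe was well above background on no array, with overlapping groups. The stromal markers named above moved with Itga11, and their part in its value was not tested.

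Among the laminin-binding chains the brightest, Itga6, was lower. Itga6 read 14.67, 14.50 and 14.62 on the Ano1fl/fl-labelled arrays and 13.29, 13.66 and 13.39 on the others, 2.22-fold lower without overlap (adjusted p = 0.000463). Of its 4 other probes, 3 were lower by 0.99 to 1.56 without overlap and 1 differed by -0.00 with overlapping groups. Itga7, the muscle laminin receptor, read 4.15, 3.61 and 3.56 against 5.93, 6.05 and 5.68 and was 4.32-fold higher (adjusted p = 0.000291), although just 1 Ano1fl/fl-labelled array had it well above background and with normexp correction the log2 difference was 0.67. Itga3 was 1.71-fold higher (adjusted p = 0.0146, or 0.0501 without Ano1fl/fl replicate 2). Itgb4, which pairs with alpha-6 in epithelia, differed by 0.06 with a 95% interval of -0.19 to 0.31 and did not pass (adjusted p = 0.659).

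Of the chains that bind the RGD motif of fibronectin and related proteins, Itga5 was 1.73-fold higher (adjusted p = 0.00362). Itga8, which binds nephronectin, read 6.29, 6.56 and 6.16 on the Ano1fl/fl-labelled arrays and 4.19, 4.65 and 4.73 on the others. Its groups were well apart at 3.52-fold (adjusted p = 0.000438), though with normexp correction the log2 difference was -0.75.

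Itga9, which binds tenascin-C and osteopontin, was higher and its relative Itga4 did not pass. Itga9 read 7.44, 7.64 and 7.90 against 9.99, 10.11 and 9.80, 4.93-fold higher without overlap (adjusted p = 8.32e-05). A second Itga9 probe, at chr9:118796991-118806400 on the plus strand of mm9, covers the start of the cytoplasmic tail and differed by 2.65. It holds the codons of the GFFKR motif, whose next-to-last residue can be lysine or arginine and by which alpha chains clasp their beta chain at the membrane, and so does the Itga2 probe at chr13:115626714-115626773 on the minus strand. They are shown with these codons in capitals.

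Itga9 tail probe: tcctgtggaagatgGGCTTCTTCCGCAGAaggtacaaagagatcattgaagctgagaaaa

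Itga2 tail probe: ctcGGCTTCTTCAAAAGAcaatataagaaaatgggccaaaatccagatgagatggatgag

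Both tail probes were higher on the Ctsk-Cre;Ano1fl/fl-labelled arrays without overlap. Such codons, in a frame without an earlier stop, were found in 4 of the 56605 probes, and 3 of these belonged to members. The third, of Itgad, never stood well above background. Itga4 differed by -0.25 (95% interval -0.47 to -0.03, adjusted p = 0.0611) by its brightest probe, which lies far into the transcript. Its 4 other bright probes, 1 of them well above background on just 1 Ctsk-Cre;Ano1fl/fl-labelled array, were lower by 0.60 to 1.04 without overlap, and the mean of all Itga4 probes differed by -0.69 (adjusted p = 0.00148, against 0.162 at the highest over the alternatives). Without Ano1fl/fl replicate 2 the brightest probe passed as well (adjusted p = 0.0228).

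Of the leukocyte integrins, the Itgax, Itgal and Itgae alpha chains were higher, and Itgam and the beta-2 chain Itgb2 did not pass. Itgax, the CD11c chain of dendritic cells and of some macrophages and osteoclast precursors, read 9.34, 9.65 and 9.94 on the Ano1fl/fl-labelled arrays and 12.42, 12.37 and 11.79 on the others. It was 5.84-fold higher (adjusted p = 0.000290), the widest gap of any leukocyte chain, and another bright probe differed by 1.70. A further probe, not well above background on any Ano1fl/fl-labelled array, was at least 3.27-fold higher. Of the dendritic cell markers 2 of 7 were higher and 1 lower, with a median difference of 0.21. Over all genes tested 23.4% were higher and 29.0% lower.

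Itgal, the CD11a chain of lymphocyte function-associated antigen, read 9.66, 9.46 and 9.41 against 11.48, 11.23 and 11.10, and was 3.39-fold higher without overlap (adjusted p = 0.000125). A dim Itgal probe drawn from a cDNA clone was not well above background on any Ctsk-Cre;Ano1fl/fl-labelled array and was at least 1.20-fold lower there, and the mean of all Itgal probes differed by 0.32. T and NK cell markers had 4 of 9 higher and 2 lower, B cell markers 3 of 4 higher and 1 lower, and their part in the Itgal value was not tested. Itgam, the CD11b chain of myeloid cells, differed by 0.10 (95% interval -0.09 to 0.28) and did not pass (adjusted p = 0.335). Of the neutrophil markers 8 of 12 were lower and 2 higher, with a median difference of -1.33 and a summed signal of 333995 to 351843 on the Ano1fl/fl-labelled arrays and 234914 to 285622 on the others. Of the macrophage markers 7 of 13 were lower and 1 higher, with a median difference of -0.42. Their summed signal overlapped, at 655661 to 698335 on the Ano1fl/fl-labelled arrays and 631632 to 698436 on the others. The part of neutrophils and macrophages in the Itgam and Itgax values was not tested.

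Itgb2, the partner of Itgax, Itgal and Itgam, read 14.17, 14.19 and 14.12 on the Ano1fl/fl-labelled arrays and 14.40, 14.31 and 14.23 on the others. The values did not overlap, yet the difference of 0.15 did not pass (95% interval -0.02 to 0.33, adjusted p = 0.126).

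Itgb7, the beta chain of gut-homing lymphocytes and of mast cell precursors, showed the deepest fall of any beta chain. It read 13.40, 13.61 and 13.52 on the Ano1fl/fl-labelled arrays and 11.79, 11.82 and 11.87 on the others, 3.22-fold lower with tight groups that did not overlap (adjusted p = 3.12e-05). Mast cell and basophil markers fell on the same arrays, 5 of 6 with a median difference of -2.74, or -1.88 with normexp correction. Their summed signal was 7013 to 9323 on the Ano1fl/fl-labelled arrays and 3649, 903 and 1208 on the others. The part of these cells in the Itgb7 value was not tested. Itgae, the alpha chain that pairs with beta-7 alone, was higher by 0.59 (adjusted p = 0.00670), although the mean of its probes differed by 0.08 (adjusted p = 0.674, against 0.00441 at the lowest over the alternatives).

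**Figure D2:**
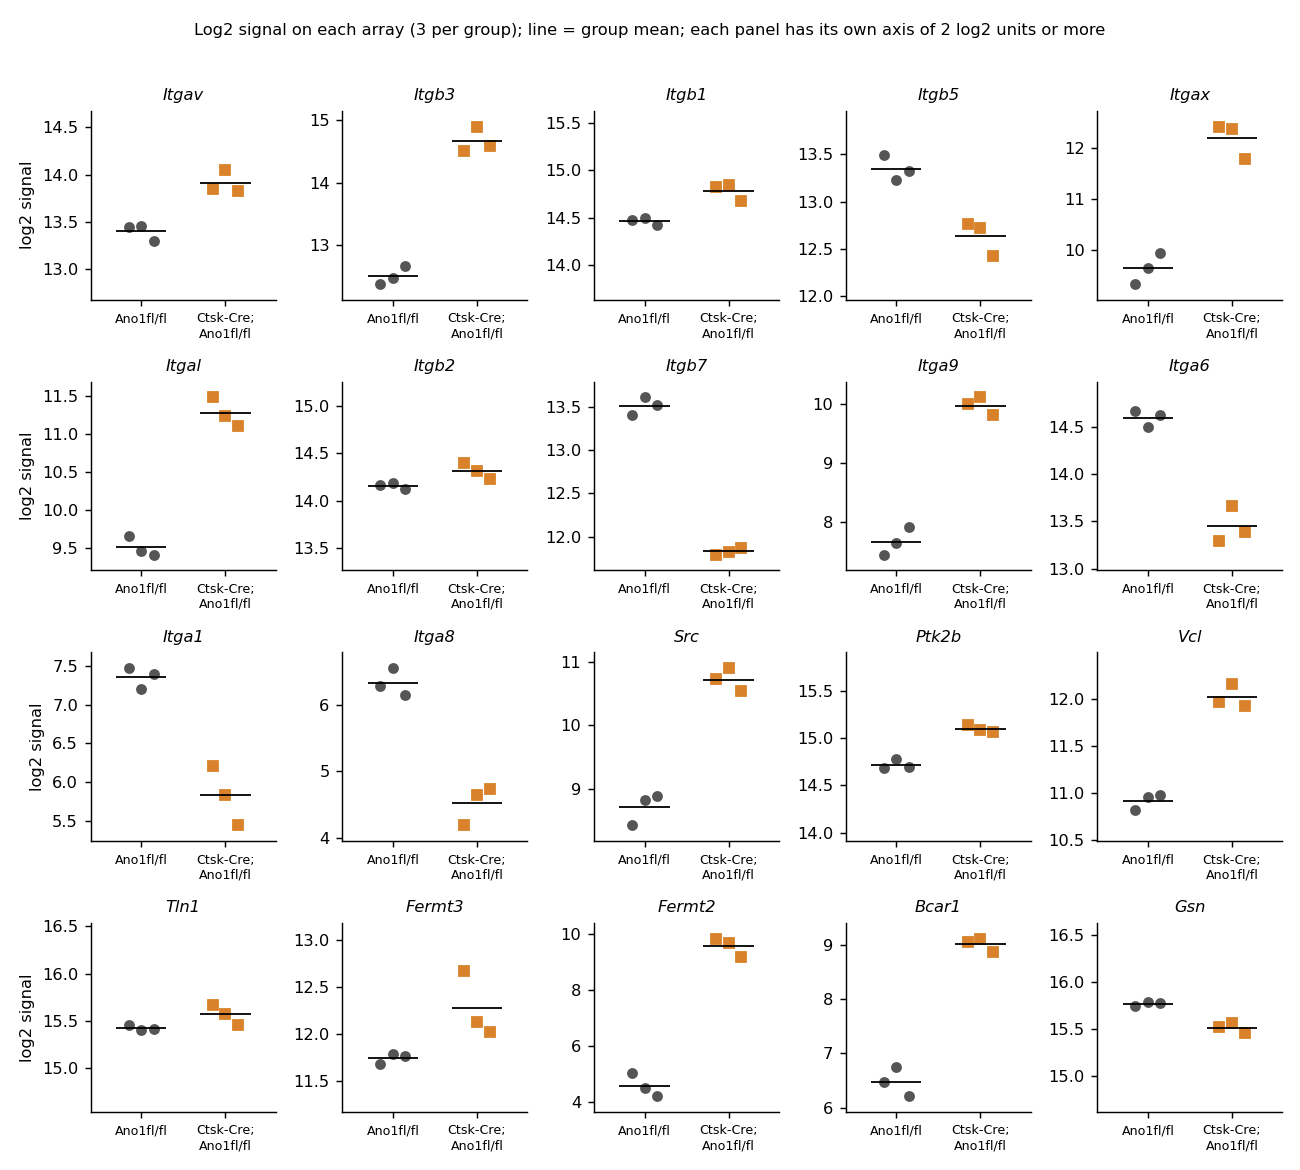
Log2 signal of 20 members on each array (vertical axis), with the Ano1fl/fl-labelled arrays as grey circles, the Ctsk-Cre;Ano1fl/fl-labelled arrays as orange squares and the group mean as a line, 3 arrays per group. Each panel has its own axis, and Itgb3, Itgax, Src and Fermt2 separate widely while Itgb2, Tln1 and Gsn separate by under 0.3.

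Read as heterodimers, 24 known pairs could be formed from these chains. Both chains were higher in 8 pairs, 7 of them with Itgb1 and the last being the vitronectin receptor. The chains went opposite ways in 7 pairs, in 6 more at least 1 chain did not pass, and in 3 a chain was not tested. In no pair were both chains lower in the main analysis. The 7 pairs with Itgb1 rest on its call, which was lost under scaling by the 75th percentile, where 1 pair had both chains higher. It was also lost with the mean of all probes, where 0 pairs did, the Itgav call being lost there too. With genes well above background on all 6 arrays, which leaves out Itga11, Itga2 and Itga7, 5 pairs had both chains higher, 4 with Itgb1. Itga4 and Itgb7 were both lower in the 4 alternatives in which Itga4 passed. Pairs that share a chain are not independent, and 12 of the 24 contain Itgb1.

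**Figure D3:**
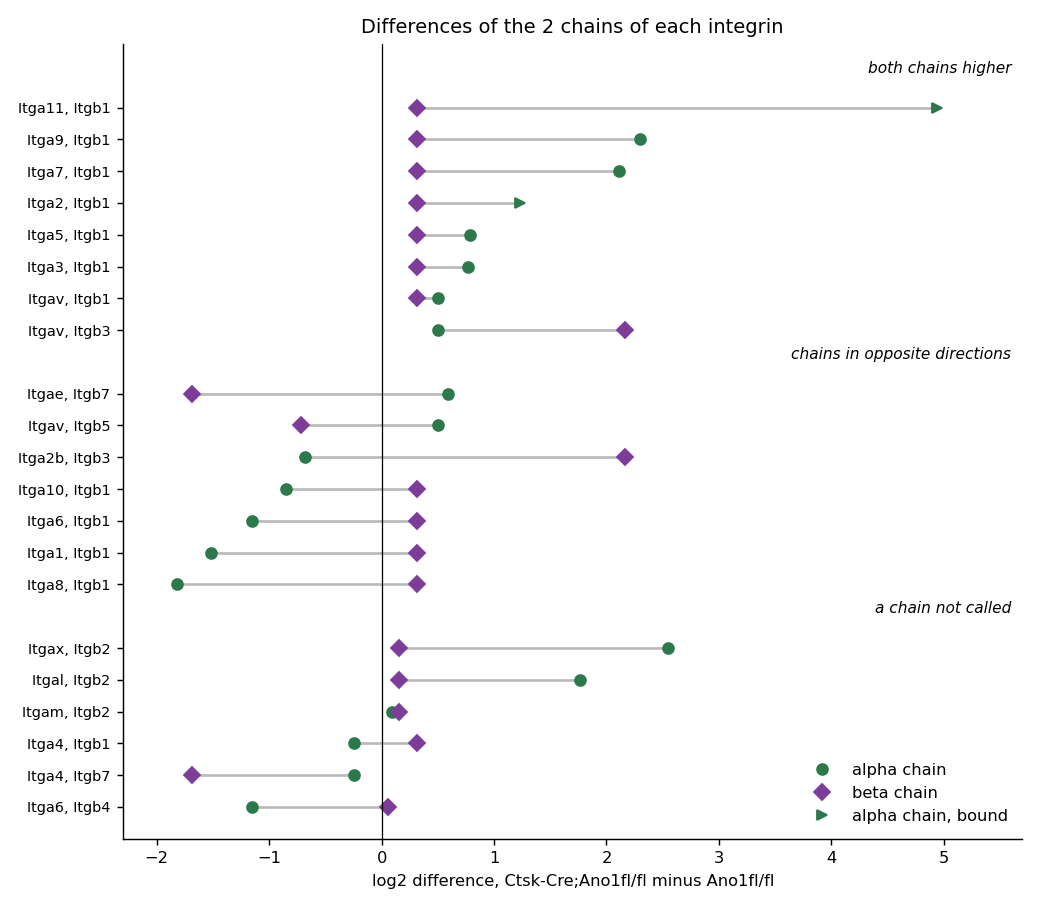
Log2 difference between the groups (horizontal axis) of the alpha chain (green circle) and beta chain (purple diamond) of the 21 integrin pairs with both chains tested, grouped by the direction of the chains. Triangles mark Itga11 and Itga2 at their bounds, and Itgae with Itgb7 is an opposite pair, 0.59 against -1.69.

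Of the 9 proteins that switch integrins on or tie them to actin, Fermt2, Tln2, Vcl and Fermt3 were higher, Ilk was lower and 4 did not pass. Talins unlock the beta tail. Tln1, the talin of blood cells, read 15.45, 15.40 and 15.41 on the Ano1fl/fl-labelled arrays and 15.67, 15.58 and 15.46 on the others, and its difference of 0.14 did not pass (95% interval -0.05 to 0.33, adjusted p = 0.167). Tln2 read 4.33, 3.85 and 3.87 against 6.05, 6.12 and 5.64, 3.79-fold higher without overlap (adjusted p = 0.000416), with just 1 Ano1fl/fl-labelled array well above background. With normexp correction the log2 difference was 0.66. Its other probe, well above background on 2 Ano1fl/fl-labelled arrays, differed by 0.82.

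Kindlins bind the beta tail beside talin. Fermt3, kindlin-3 of blood cells and osteoclasts, read 11.68, 11.78 and 11.77 against 12.67, 12.13 and 12.02, with the first Ctsk-Cre;Ano1fl/fl-labelled array above the rest. It was 1.44-fold higher (adjusted p = 0.0432), a call that was lost in 8 of 15 alternative analyses, among them those without any of the Ano1fl/fl replicates or without Ctsk-Cre;Ano1fl/fl replicate 2 (adjusted p = 0.0576 to 0.110). Fermt2, kindlin-2 of other tissues, read 5.04, 4.52 and 4.23 against 9.82, 9.67 and 9.18. The groups were far apart at 31.1-fold (adjusted p = 4.57e-05), though with another background correction the log2 difference was 3.17 in place of 4.96. The stromal markers moved with Fermt2 also, and their part was not tested. The sequences of both kindlin probes are given because each kindlin was read by a lone probe, neither marked in capitals. Each is 60 bases and spans an intron on the minus strand of mm9, Fermt2 at chr14:46124351-46149104 and Fermt3 at chr19:7074257-7076292.

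Fermt2 probe: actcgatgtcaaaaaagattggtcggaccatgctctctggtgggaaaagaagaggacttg

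Fermt3 probe: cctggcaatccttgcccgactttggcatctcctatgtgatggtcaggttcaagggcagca

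Vinculin, which stiffens the link from talin to actin, was higher. Vcl read 10.82, 10.96 and 10.97 on the Ano1fl/fl-labelled arrays and 11.97, 12.16 and 11.92 on the others, 2.14-fold higher without overlap (adjusted p = 0.000243), and its other probe differed by 0.54. Paxillin did not pass. Pxn read 10.81, 10.87 and 10.95 against 11.13, 10.84 and 10.81, overlapping groups with a difference of 0.05 (95% interval -0.21 to 0.31, adjusted p = 0.731). Zyxin, a LIM protein of mature adhesions, differed by -0.09 and did not pass (adjusted p = 0.451). Of the integrin-linked kinase complex, Ilk was 1.25-fold lower (adjusted p = 0.0431), a call lost in 8 of 15 alternatives, among them those without any of the Ano1fl/fl replicates or without Ctsk-Cre;Ano1fl/fl replicate 2 or 3 (adjusted p = 0.0655 to 0.126). Parvb, beta-parvin, differed by 0.29 and did not pass (adjusted p = 0.0682, or 0.0431 without Ctsk-Cre;Ano1fl/fl replicate 3). Its other bright probes differed by -0.51 without overlap and by -0.68 with overlapping groups, and the mean of its probes by -0.30 (adjusted p = 0.218, the highest over the alternatives).

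Promoter windows of 300 bases across a gene's start were found for 31 of the 44 members in RefSeq (GRCm38.p6). A CArG box, the site that serum response factor reads in actin and adhesion genes, matched 1.63% of 32851 windows on either strand and 3 of the 39 windows of the members, those of Vcl, Fermt2 and Itgb6. The windows of Vcl and Fermt2, both more than 2-fold higher, are shown with the match in capitals, Vcl at chr14:20929148-20929447 on the plus strand and Fermt2 at chr14:45530016-45530315 on the minus strand. A match is a string of letters and not a bound site.

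Vcl window: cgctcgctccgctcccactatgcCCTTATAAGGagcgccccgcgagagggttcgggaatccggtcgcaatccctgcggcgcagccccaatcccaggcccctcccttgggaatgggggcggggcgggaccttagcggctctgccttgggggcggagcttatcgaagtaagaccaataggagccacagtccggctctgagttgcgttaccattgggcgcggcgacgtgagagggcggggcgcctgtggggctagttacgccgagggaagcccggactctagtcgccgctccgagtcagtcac

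Fermt2 window: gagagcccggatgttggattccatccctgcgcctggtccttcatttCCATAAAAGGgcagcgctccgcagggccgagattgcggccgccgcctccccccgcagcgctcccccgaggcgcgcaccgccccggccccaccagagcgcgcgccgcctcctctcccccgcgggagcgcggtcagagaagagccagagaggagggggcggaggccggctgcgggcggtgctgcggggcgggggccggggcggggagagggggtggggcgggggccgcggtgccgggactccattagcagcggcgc

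Other motifs were sought on both strands, and none of them contains another. The AP-1 site TGANTCA matched 4 of the 39 member windows, or 10.3%, among them those of Itga9 and Itgax, against 7.81% of all windows. The PU.1 core GAGGAA matched 15, or 38.5%, against 28.3%, and the RUNX core TGTGGT 10, or 25.6%, against 16.8%. A gene may have several windows, so these counts are not of separate genes.

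Of the kinases and adaptors downstream, Src and its substrate rose most. Src, the kinase whose loss leaves osteoclasts without a ruffled border, read 8.43, 8.83 and 8.89 on the Ano1fl/fl-labelled arrays and 10.72, 10.90 and 10.54 on the others. It was 4.02-fold higher without overlap (adjusted p = 0.000186), and its other probe differed by 1.41. Bcar1, the p130Cas scaffold that Src phosphorylates, read 6.47, 6.76 and 6.21 against 9.07, 9.12 and 8.87, 5.82-fold higher (adjusted p = 7.47e-05). A dimmer Bcar1 probe nearer the start of the transcript differed by -0.32 without overlap, so the rise held for 1 of its 2 probes, and their mean differed by 1.11.

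Ptk2b, the Pyk2 kinase of osteoclast podosomes, read 14.68, 14.78 and 14.70 against 15.14, 15.09 and 15.07. The groups were narrow and apart by 0.38, or 1.30-fold (adjusted p = 0.00409), and its other probe differed by 0.01. The mean of its probes differed by 0.20 and did not pass (adjusted p = 0.176, against 0.000344 at the lowest over the alternatives). Ptk2, the related focal adhesion kinase, differed by -0.22 with a wide interval of -0.74 to 0.30 and did not pass (adjusted p = 0.425). Cbl, the ubiquitin ligase that Src and Pyk2 recruit, differed by 0.08 and did not pass (adjusted p = 0.486). Its other bright probe was higher by 0.39 without overlap, and the mean of its probes differed by 0.23 and passed (adjusted p = 0.0408, against 0.844 at the highest over the alternatives).

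The actin core showed small changes. Cttn, cortactin, which stabilises branched actin, read 10.14, 10.48 and 10.64 on the Ano1fl/fl-labelled arrays and 11.29, 11.47 and 11.22 on the others, 1.87-fold higher without overlap (adjusted p = 0.00308). Was, the WASP protein that switches on actin branching, read 13.22, 13.54 and 13.50 against 13.10, 12.96 and 13.09, 1.29-fold lower (adjusted p = 0.0281). Gsn, gelsolin, which severs actin filaments, read 15.74, 15.79 and 15.77 against 15.52, 15.56 and 15.45.

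The Gsn groups were apart by 1.19-fold (adjusted p = 0.0174), with its other probe at -0.50. The Gsn call was lost without Ano1fl/fl replicate 2 or 3 or Ctsk-Cre;Ano1fl/fl replicate 3 (adjusted p = 0.0523 to 0.0592), and the Was call without every array but Ano1fl/fl replicate 1 (adjusted p = 0.0552 to 0.0887). Wipf1, the partner that holds WASP, differed by 0.02 (95% interval -0.16 to 0.21, adjusted p = 0.800).

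How far probes of a gene gave the same answer could be read for 24 members with more than 1 probe well above background. Of the 30 members called, 15 had another such probe. For 8 of them, Itgb3, Itgax, Itga9, Src, Tln2, Vcl, Itgb1 and Gsn, every further probe went the same way without overlap. Both Tln2 probes and the dimmest Itgax probe counted as bright through the Ctsk-Cre;Ano1fl/fl-labelled arrays alone, so their agreement is partly built in by the filter. For Bcar1, Itgal and Itgav a further probe went the other way without overlap, that of Itgal being below background throughout a group, and the rest had a probe whose groups overlapped. The remaining 15 calls rest on a lone bright probe each.

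**Figure D4:**
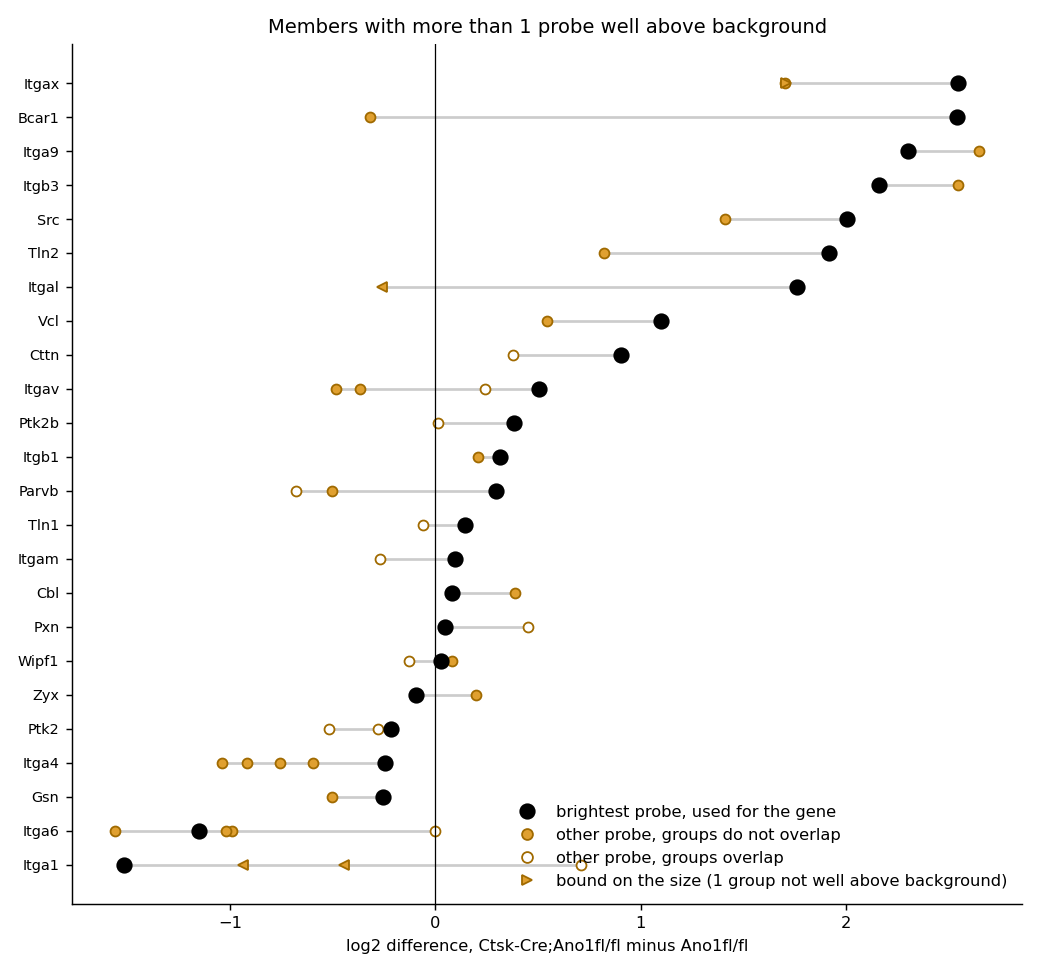
Log2 difference between the groups (horizontal axis) for each probe well above background on all 3 arrays of a group, in the 24 members tested that had more than 1. Large black points are the probes used for the gene and orange or open points the others, triangles mark the smallest size that a probe below background throughout a group allows, and Bcar1 and Itgal show points on both sides of 0.

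Around these members, other genes of the same structures were read from lists. Of 54 further adaptors and scaffolds tested, 30 were higher and 7 lower, where 23.4% of all genes tested were higher and 29.0% lower. Past 2-fold were 12 of the rises and none of the falls, where 9.88% of all genes rose and 7.19% fell so far. The median difference was 0.36, against -0.06 over all genes. Kank1, which links talin to microtubules, was not well above background on any Ano1fl/fl-labelled array and was at least 25.3-fold higher. Its adjusted p of 3.81e-06 comes from values below background in that group. Enah, the Mena protein that lengthens actin filaments, was well above background on 2 Ano1fl/fl-labelled arrays and was 25.9-fold higher (adjusted p = 2.42e-05), and Fhl2, a LIM adaptor that binds integrin tails, 23.1-fold higher (adjusted p = 2.59e-05). With normexp correction the log2 differences were 2.79 for Kank1, 2.57 for Enah in place of 4.69 and 3.35 for Fhl2 in place of 4.53. Kank1 and Enah passed the filter through the Ctsk-Cre;Ano1fl/fl-labelled arrays alone, so their differences are partly built in by the filter. Sh3pxd2b, the protein formerly named Tks4, differed by 0.04 and did not pass (adjusted p = 0.787). The stromal markers moved with these rises, and their part in the values of this list and of the actin regulators was not tested.

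Of 56 actin regulators tested, 18 were higher and 7 lower, where 23.4% of all genes tested were higher and 29.0% lower. The median difference was 0.12. Past 2-fold were 3 rises and 1 fall, smaller shares than the 9.88% and 7.19% of all genes. The 3 rises were Tpm2, a tropomyosin of contractile cells, at 14.0-fold (adjusted p = 6.07e-05), Mmp14, a membrane-bound collagenase of podosomes, at 4.24-fold (adjusted p = 8.10e-05), and Rac2, the Rac GTPase of blood cells, at 2.10-fold (adjusted p = 0.000304). The fall was Fscn1, fascin, which bundles actin, at a log2 signal of 8.53 ± 0.09 (SD) against 7.53 ± 0.23 (adjusted p = 0.00133). With normexp correction the log2 differences of Tpm2 and Fscn1 were 2.79 and -0.83.

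Most integrin ligands were higher. Of 32 tested, 20 were higher and 5 lower, where 23.4% of all genes tested were higher and 29.0% lower. Past 2-fold were 18 of the rises, against 9.88% of all genes. The median difference was 2.73, or 1.66 with normexp correction. Col1a1, the main collagen of bone, was 69.6-fold higher (adjusted p = 1.92e-05). Postn, periostin, was higher too (adjusted p = 2.98e-05), but as just 1 Ano1fl/fl-labelled array had it well above background its size is uncertain, a log2 difference of 6.50, or 4.18 with normexp correction. Thbs2, thrombospondin-2, was not well above background on any Ano1fl/fl-labelled array and was at least 24.1-fold higher, or a log2 difference of 2.57 with normexp correction. Its adjusted p of 0.000438 comes from values below background in that group. The fall past 2-fold was Cdh1, E-cadherin, the ligand of the alpha-E chain, at 3.66-fold (adjusted p = 0.00535), or a log2 difference of -0.75 with normexp correction. Postn, Thbs2 and Cdh1 each passed the filter through 1 group alone, so their differences are partly built in by the filter. Postn and Col1a1 are also among the stromal markers, and the part of those cells in the ligand values was not tested.

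**Figure D5:**
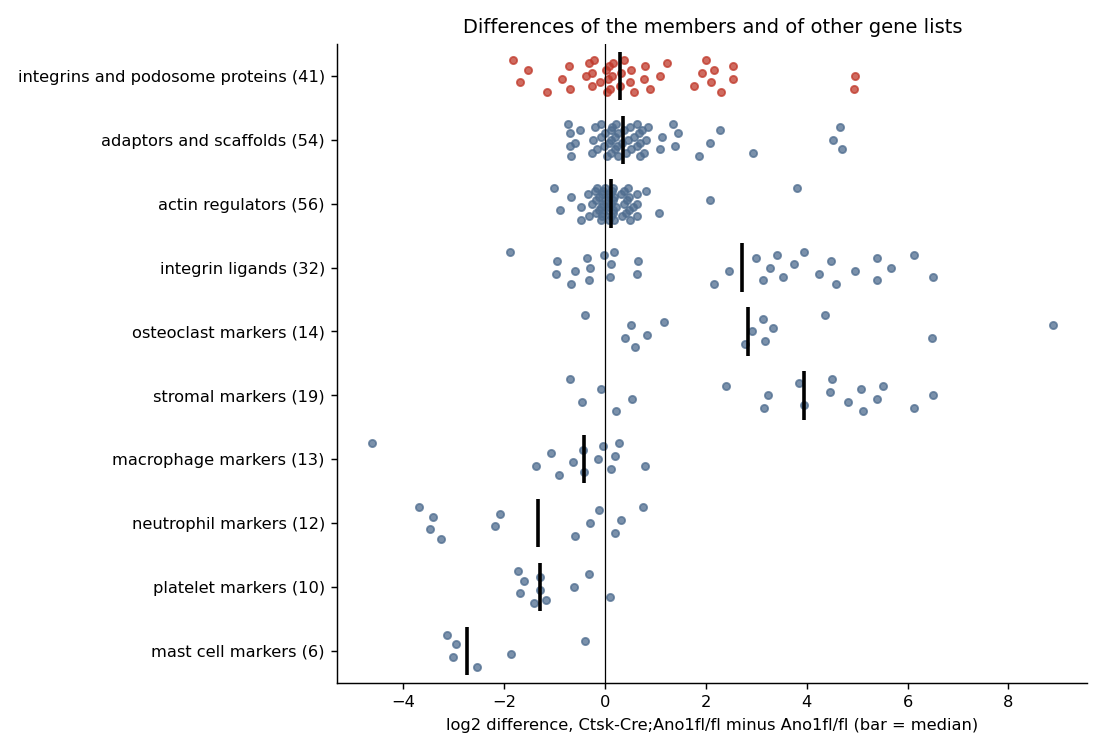
Log2 difference between the groups (horizontal axis) for each tested gene of the members (red) and of 9 other lists (blue), with the median of each as a bar and the number tested in brackets, genes below background throughout a group being drawn at their bounds. The medians run from -2.74 for mast cell markers to 3.94 for stromal markers, and that of the members is 0.29.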

How the data were processed

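The authors deposited 1 Feature Extraction file per array for 6 Agilent one-color mouse arrays (Agilent Feature Extraction 10.7.1.1 in the submitters' notes), holding intensity values per spot on a linear scale, among them a processed signal from which background has been removed. The deposited series matrix holds the median spot intensity, the largest difference being 0. Probe positions are on mm9, as in the files.

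Samples were grouped by their labels, 3 arrays each. Quantile normalization, which the study's methods name, was run on log2 processed signals with limma 3.58.1 in R 4.3.3. Control spots were not used, and outlier spots (143 to 252 transcript spots per array) were set to missing. Spots of a probe were averaged, the brightest probe by mean stood for its gene, and a probe counted as above background when a share of 0.5 or more of its spots did. Groups were compared with lmFit and eBayes, and p-values were adjusted over all 20645 genes tested by the Benjamini-Hochberg method. Intervals at 95% come from the same model. Its calls and differences, not the coverage of its intervals, were tested on simulated data. A bound written as at least N-fold takes, for each dim array, the faintest probe that stood above background there as the level of the dimmer group. It holds for the main processing alone, and an adjusted p beside it is that of the fitted difference, not of the bound. The number of arrays limits the precision.

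Array values are given for members past 2-fold and for a fixed set of podosome members, and lists are named by up to 3 largest rises and falls past 2-fold. Members and lists were chosen with earlier results of these data known. Alternatives were scaling by the 75th percentile, background correction by normexp (offset 50), series matrix values, other filters on dim probes, the mean of all probes, a replicate block, the methods' t-test, limma with trend and robust settings, and each array left out in turn. Sequences were read from the array files and from RefSeq windows (GRCm38.p6), using Python 3.11.15 with pandas 2.3.3 and matplotlib 3.10.9 for figures.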

Additional observations from a re-analysis of the deposited data

How the results depend on the processing

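Of the 30 members called, 20 kept their direction and their side of the threshold in each of the 15 alternatives run, or 14 for Itga2, Itga7, Itga11 and Tln2, which a filter left out, and 24 did so in every analysis with an array left out. Of the 11 not called, 8 passed in no alternative, and the sign of 6 of these, Itgam, Itgb4, Ptk2, Pxn, Wipf1 and Zyx, turned in some. The count of higher members ran from 16, with the mean of all probes or with genes well above background on all 6 arrays, to 20, and from 18 to 21 with an array left out. The count of lower members ran from 6 to 9 with an array left out, the 6 being without Ano1fl/fl replicate 3. The methods' t-test called 18 higher and 7 lower after adjustment, and 20 and 11 at an unadjusted p under 0.05. The counts past 2-fold were 12 to 13 higher and 4 lower with an array left out. With normexp correction, whose offset of 50 adds to every signal, 9 members were more than 2-fold higher in place of 12 and 2 lower in place of 4, and the cause was not tested. With genes well above background on all 6 arrays, which leaves out 4 of the 12, 8 were. The share of all genes past 2-fold is not given for either setting.

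Itgav turned to -0.025 with the mean of its probes, which brings its dimmer probes into the value. The calls of Fermt3, Ilk and Was were each lost in 8 alternatives, that of Itga2b in 6, that of Gsn in 4, that of Itga3 in 3, that of Itgb1 in 2 and those of Itgae and Ptk2b in 1 each. Itga4 passed in 4 alternatives and Cbl and Parvb in 1 each, and the sign of Parvb turned with the mean of its probes.

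The replicate numbers of the labels did not pair the samples, since same-numbered samples had correlations of 0.004, -0.062 and -0.081 in their deviations from the group means. With the replicate number as a block 19 members were higher and 6 lower, and the cause was not tested. The arrays' signal over background limits Itga2, Itga7, Itga11 and Tln2, which were well above background on at most 1 Ano1fl/fl-labelled array.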
